A study of Homo sapiens with 12 samples.

Results

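Amino acid transporters carry amino acids across the plasma membrane and the membranes of lysosomes and other compartments. The genes described here are those whose symbol belongs to the solute carrier families SLC1A, SLC3A, SLC7A, SLC36A, SLC38A or SLC43A, and 40 of the 45416 genes in the deposited table met that rule. Of these 40 genes, 22 were expressed at a mean of 1 CPM (the read count of a gene scaled to the size of its library) or more over the 12 libraries. This is 55% of them against 31.4% of all genes in the table. The latter also include noncoding RNA genes and pseudogenes, so the 2 shares are not of like genes. The libraries were made from poly(A) RNA of U251, an established human glioblastoma cell line labelled as wild type, to assess the effect of *PD-L1* silencing on the transcriptome. Cells received a control siRNA (siNC), siPDL1-1 or siPDL1-2, the last 2 of which target *PD-L1*, for 48 h, and were then left unstimulated or stimulated with IFNγ at 100 U/ml for 24 h. Each of the 6 resulting groups had 2 libraries, which came from independent experiments per the methods, so the spread between libraries rests on pairs of values.

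The SLC7A light chains that exchange neutral amino acids or cystine reach the membrane as heterodimers with an SLC3A heavy chain, whereas the SLC7A cationic carriers work without one. SLC1A proteins are sodium-dependent transporters of glutamate or exchangers of small neutral amino acids, SLC38A proteins move glutamine and other neutral amino acids with sodium, SLC36A proteins include proton-coupled carriers of small amino acids, and SLC43A proteins are facilitative carriers. In astrocytes these families are known for clearing glutamate and releasing glutamine, and in glioma for exchanging glutamate against cystine, the precursor of glutathione. When amino acids are short, the kinase GCN2 raises the translation of ATF4, a transcription factor that binds the C/EBP-ATF response element (CARE) of many transporter genes, and IFNγ is known to act on genes that hold the gamma-activated sequence (GAS).

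Promoter windows are shown because amino acid shortage and IFNγ are known to act through these short motifs. RefSeq windows from 250 bases before to 50 bases after an annotated start (GRCh38.p14) were found for 31 of the 40 genes, 53 windows in all. The CARE letters TGATGNAA, searched on both strands, were in 6 member windows of 6 genes, or 11.3% of the windows, against 3.62% of all 35116 windows. The GAS letters TTCNNNGAA read the same on both strands and were in 4 member windows of 3 genes, or 7.55%, against 7.66% of all windows. All genes with a match were expressed at 1 CPM or more. Genes at that level held 38 of the 53 windows, and a window was found for 19 of these 22 genes. Each line gives the match in capitals within 30 bases of the window, 5′ to 3′ on the strand of the gene. The CARE matches were at chr2:64989381-64989410 for *SLC1A4*, chr5:36596357-36596386 for *SLC1A3*, chr11:62881719-62881748 for *SLC3A2*, chr12:46266502-46266531 for *SLC38A1*, chr13:29595663-29595692 for *SLC7A1* and chr19:46784893-46784922 for *SLC1A5*. *SLC38A1*, *SLC7A1* and *SLC1A5* lie on the minus strand and the others on the plus strand. The bases shown for *SLC1A3* lie outside the span of the gene in the deposited table and those for *SLC7A1* reach past it, whereas the other 4 lie inside the span, at internal starts. A match describes these letters and says nothing about binding.
SLC1A4: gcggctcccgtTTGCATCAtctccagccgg
SLC1A3: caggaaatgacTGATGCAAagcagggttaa
SLC3A2: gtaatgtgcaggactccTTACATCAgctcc
SLC38A1: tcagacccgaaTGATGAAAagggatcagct
SLC7A1: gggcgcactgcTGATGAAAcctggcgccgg
SLC1A5: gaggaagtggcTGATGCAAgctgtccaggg

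The GAS matches were in 1 window of *SLC1A3* (chr5:36596532-36596562, plus strand) and 1 window of *SLC38A1* (chr12:46266682-46266712, minus strand), and in windows at different annotated starts of *SLC3A2* (chr11:62881604-62881634 and chr11:62880677-62880707, plus strand). They are given within 31 bases each, with the match in capitals, because these 3 genes also hold a CARE match.
SLC1A3: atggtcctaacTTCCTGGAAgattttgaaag
SLC3A2: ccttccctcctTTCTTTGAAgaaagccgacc
SLC3A2: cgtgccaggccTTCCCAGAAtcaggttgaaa
SLC38A1: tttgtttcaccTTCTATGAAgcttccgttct

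The libraries held between 17101069 and 55657393 reads on genes, so that 1 read was worth between 0.0187 and 0.0586 CPM. PD-L1, listed as *CD274*, averaged 73.6 ± 3.43 CPM in IFNγ-stimulated siNC cells, 63.8 ± 4.04 in siPDL1-1 and 36.3 ± 1.76 in siPDL1-2 cells (± SD, n = 2). Against siNC after IFNγ, *CD274* fell with siPDL1-2 (log2 fold change -1.001, FDR = 4.25e-07, limma) and did not pass the thresholds with siPDL1-1 (log2 fold change -0.20, FDR = 0.0498, limma). In unstimulated cells *CD274* fell with siPDL1-1 (log2 fold change -0.64, FDR = 1.76e-05, limma), and the value of -0.35 with siPDL1-2 was below the fold change threshold. The glioma markers *VIM*, *TNC*, *CD44* and *SOX2* averaged 3502, 940.2, 523 and 161 CPM, and *PTPRZ1*, *GFAP* and *S100B* were low at 6.46, 4.38 and 3.70 CPM. Of 17 markers of immune, endothelial, epithelial, neuronal and oligodendrocyte cells, 12 were below 1 CPM, among them *PTPRC* (0.0955 CPM), *EPCAM* (0.0745 CPM) and *PECAM1* (0.172 CPM). The other 5 were *KRT18* at 74.0, *CD68* at 46.0, *VWF* at 2.79, *SYT1* at 2.64 and *SNAP25* at 1.09 CPM. The proliferation marker *MKI67* and the interferon-induced gene *MX2* differed between the groups, *MKI67* from 707 ± 3.79 CPM with siNC to 391 ± 20.0 with siPDL1-1 and 471 ± 47.5 with siPDL1-2 after IFNγ (mean ± SD, n = 2), and *MX2* from 4.11 ± 0.0638 to 141 ± 4.38 and 5.75 ± 0.333 CPM. Their part in the transporter results was not tested, and in bulk RNA fewer cells of a kind and less RNA per cell cannot be told apart.

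Among the families, 4 of 7 SLC1A genes, 1 of 2 SLC3A genes, 6 of 13 SLC7A genes, 2 of 4 SLC36A genes, 7 of 11 SLC38A genes and 2 of 3 SLC43A genes reached 1 CPM. The number was also 22 at a cutoff of 2 CPM and was 24 at 0.5 CPM. Levels of different genes were compared as mean CPM per kb of the canonical transcript. On this scale *SLC1A5*, the exchanger that brings glutamine into cells in return for other neutral amino acids, was highest at 254 CPM per kb and exceeded the next gene in all 12 libraries. The heavy chain *SLC3A2* (119 CPM per kb) and the large neutral amino acid carrier *SLC7A5* (111 CPM per kb) followed, and their order held in 10 of 12 libraries. In CPM *SLC7A5* was higher (508 against 225), so this order rests on the lengths used, 1885 bases for *SLC3A2* and 4556 for *SLC7A5*. The deposited span of *SLC3A2* differed from that in the annotation that gave the lengths. The glutamine and alanine carrier *SLC38A2* (45.1), *SLC38A10* (33.0), the cystine-glutamate exchanger *SLC7A11* (24.2), the arginine carrier *SLC7A1* (23.7), the astrocytic glutamate carrier *SLC1A3* (21.6), *SLC38A1* (20.5) and the serine and alanine exchanger *SLC1A4* (14.9 CPM per kb) came next. Neighbours in that order were not separated throughout, since *SLC7A11* exceeded *SLC7A1* in 6 of 12 libraries and *SLC1A3* exceeded *SLC38A1* in 6 of 12. The remaining 12 of the 22 genes lay between 0.533 CPM per kb (*SLC7A8*) and 6.93 CPM per kb (*SLC38A9*).

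**Figure D1:**
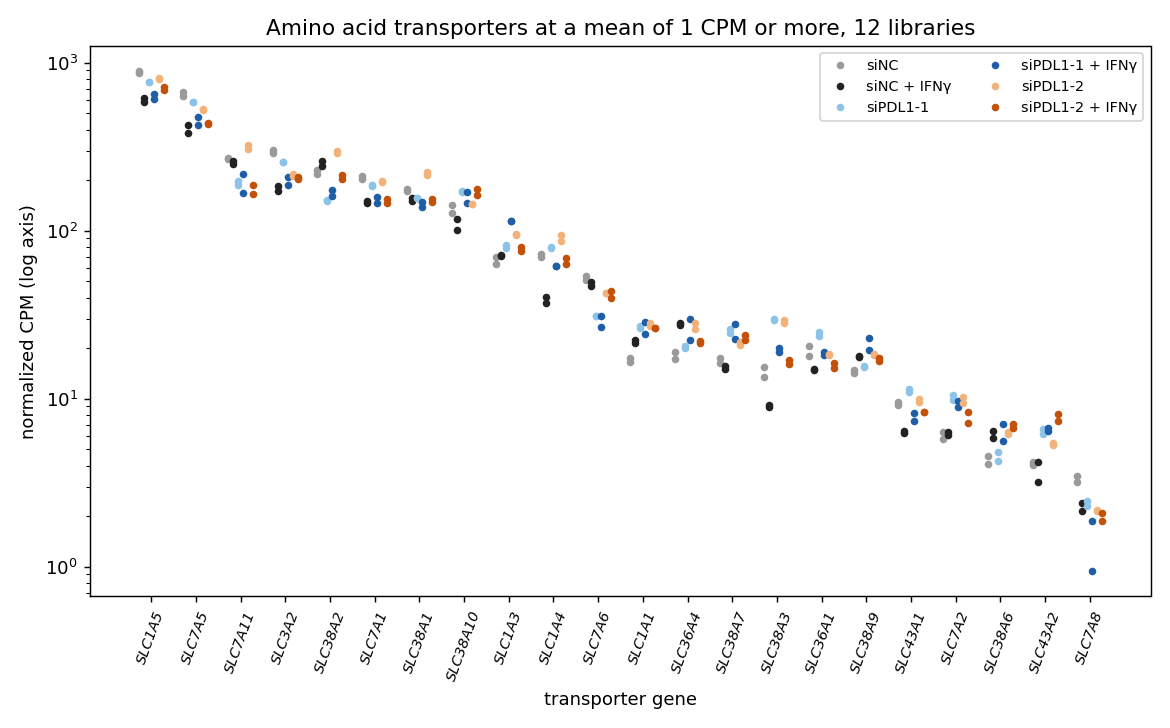
CPM per library (log axis) of the 22 amino acid transporter genes with a mean of 1 CPM or more, with 1 point per library and colours for the 6 groups. SLC1A5 is highest in every library, from 585 to 894 CPM, and SLC7A8 has the lowest mean at 2.26 CPM.

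The other 18 transporters averaged below 1 CPM. The light chain *SLC7A7* (0.863 CPM), the heavy chain *SLC3A1* (0.554 CPM), the arginine carrier *SLC7A3* (0.249 CPM), *SLC43A3* (0.216 CPM) and *SLC1A2* (0.175 CPM) still had enough reads to be tested, which gave 27 tested genes. *SLC1A2*, the main glutamate carrier of mature astrocytes, had 73 reads over the 12 libraries, against 34685 for *SLC1A3*. The 13 genes that were not tested comprised *SLC38A5*, *SLC7A10*, *SLC38A4*, *SLC7A9* and *SLC36A2* with 7 to 64 reads in all, 6 genes with 1 or 2 reads (*SLC38A11*, *SLC1A7*, *SLC38A8*, *SLC7A14*, *SLC7A4* and *SLC36A3*), and *SLC7A13* and *SLC1A6* with none. Genes without a read were not detectable at this depth.

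The transporter mRNAs summed to 3133 and 3190 CPM in unstimulated siNC cells and to 2434 and 2351 CPM after IFNγ. The sums were 2834 and 2837 CPM without and 2507 and 2434 CPM with IFNγ for siPDL1-1, and 3118 and 3129 CPM without and 2550 and 2533 CPM with IFNγ for siPDL1-2. Every unstimulated library was above every stimulated one in this sum, in which *SLC1A5* and *SLC7A5* weigh most. The comparisons were made gene by gene on log2(CPM + 1) with limma's moderated test, in 1 fit of all 12 libraries and 17982 genes, with a call at FDR < 0.01 together with a fold change > 1.5. The pseudocount of 1 makes the log2 fold changes of low genes smaller.

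IFNγ lowered more transporters than it raised in siNC cells. There, 5 of 27 transporters were called, *SLC1A4*, *SLC3A2*, *SLC7A5* and *SLC38A3* downward and *SLC36A4* upward, where 8.12% of all genes tested were called, 1.45% downward and 6.67% upward. The median log2 fold change of the 22 genes at 1 CPM or more was -0.16 against 0.0055 for all genes at that level, and 15 of the 22 had a negative value. In siPDL1-2 cells 2 of 27 transporters were called, both downward, *SLC7A11* and *SLC38A3*, against 5.27% of all genes (3.62% upward, 1.65% downward). In siPDL1-1 cells limma called 0 of 27 against 6.87% of all genes (5.58% upward, 1.30% downward). In that comparison 15 transporters had an unadjusted p under 0.05, a count that cannot be weighed because the share of all genes was not computed. Without a fold change threshold, 14 of 27 passed FDR < 0.05 by limma against 33.9% of all genes. The edgeR and DESeq2 tests each called 1 transporter, *SLC38A3*, and 1461 and 1273 of all genes. The median log2 fold changes of the 22 genes were -0.12 in siPDL1-1 cells and -0.20 in siPDL1-2 cells, against -0.013 and -0.0095 for all genes at 1 CPM or more.

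In unstimulated cells siPDL1-1 altered 4 of 27 transporters, with *SLC38A3*, *SLC7A2* and *SLC1A1* raised and *SLC7A6* lowered, against 4.00% of all genes (2.55% upward, 1.45% downward). siPDL1-2 raised 3 of 27, *SLC38A3*, *SLC1A1* and *SLC7A2*, against 6.17% of all genes (4.84% upward, 1.33% downward). After IFNγ siPDL1-1 altered 6 of 27, with *SLC38A3*, *SLC43A2*, *SLC38A7*, *SLC1A3* and *SLC1A4* raised and *SLC7A6* lowered, against 5.47% of all genes (3.73% upward, 1.75% downward). In the same condition siPDL1-2 raised 4 of 27, *SLC43A2*, *SLC38A3*, *SLC1A4* and *SLC38A10*, against 3.13% of all genes (1.92% upward, 1.20% downward). Both siRNAs were set against the same siNC libraries, so a deviation of those libraries enters both comparisons. When the siRNAs were compared with each other, *SLC38A2* and *SLC7A11* were lower with siPDL1-1 in unstimulated cells, 2 of 27 against 4.35% of all genes (0.884% upward, 3.47% downward). After IFNγ limma called 0 of 27 between the siRNAs against 2.23% of all genes (1.79% upward, 0.439% downward). There 10 transporters had an unadjusted p under 0.05, again without a share of all genes to set beside it. Without a fold change threshold, 5 of 27 passed FDR < 0.05 by limma against 19.2% of all genes. The edgeR and DESeq2 tests called 0 transporters as well, and 438 and 378 of all genes.

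**Figure D2:**
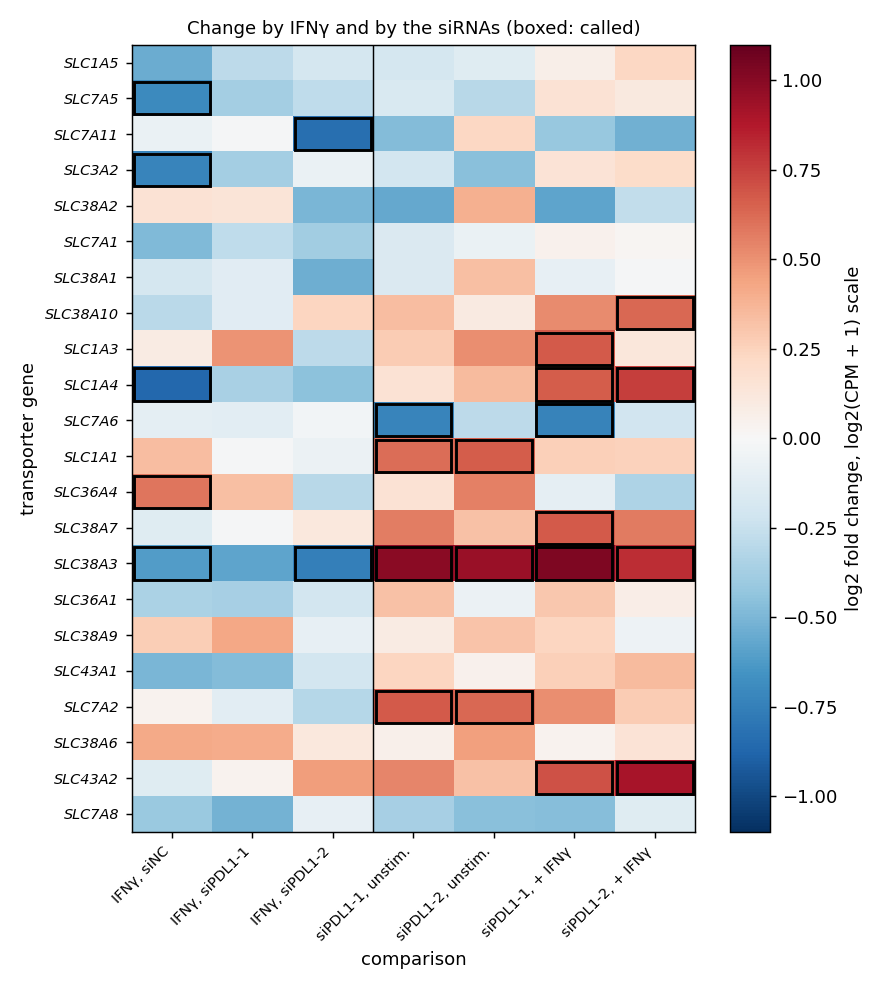
Log2 fold changes, on the log2(CPM + 1) scale, of the 22 transporters with a mean of 1 CPM or more for IFNγ within each siRNA (left 3 columns) and for each siRNA against siNC (right 4 columns), as colours from blue (lower) to red (higher), with called genes boxed. SLC38A3 is boxed in 6 of these 7 comparisons, downward with IFNγ and upward with the siRNAs.

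Whether IFNγ acted differently in siRNA-treated and in siNC cells was tested as an interaction in the same fit. For siPDL1-2, 4 of 27 transporters were called, *SLC36A4*, *SLC7A11* and *SLC38A2* downward and *SLC3A2* upward, against 7.62% of all genes (1.84% upward, 5.78% downward). Over both interactions edgeR and DESeq2 each called 5 transporters. Of all genes, edgeR called 163 for siPDL1-1 and 1445 for siPDL1-2, and DESeq2 called 164 and 1356. For siPDL1-1, limma called 0 of 27 against 0.968% of all genes (0.890% upward, 0.0779% downward), and edgeR and DESeq2 called 0 as well. In this interaction 8 transporters had an unadjusted p under 0.05, for which the share of all genes was not computed. Without a fold change threshold, 5 of 27 passed FDR < 0.05 by limma against 3.18% of all genes. At FDR < 0.05 without a fold change threshold, 5 transporters were higher and 11 lower with IFNγ in siNC cells (38.3% of all genes passed), 5 and 9 in siPDL1-1 cells (33.9%) and 1 and 11 in siPDL1-2 cells (28.9%). By the same rule 10 were higher and 8 lower with siPDL1-1 (28.9%) and 12 and 5 with siPDL1-2 (40.8%) in unstimulated cells. In stimulated cells these numbers were 13 and 4 with siPDL1-1 (35.2%) and 10 and 4 with siPDL1-2 (30.6%). For siPDL1-1 against siPDL1-2 they were 4 and 9 without (36.7%) and 2 and 3 with IFNγ (19.2%), and for the interactions 5 and 0 with siPDL1-1 (3.18%) and 6 and 7 with siPDL1-2 (29.6%). Under the stricter call, 14 of the 27 transporters tested were called in at least 1 of the 9 pairwise comparisons, against 20.3% of all genes tested. All 14 were among the 22 genes at 1 CPM or more, and 24.0% of all genes at that level were called at least once. The other 13 tested genes were called in none, including 8 at 1 CPM or more: *SLC1A5*, *SLC7A1*, *SLC38A1*, *SLC36A1*, *SLC38A9*, *SLC43A1*, *SLC38A6* and *SLC7A8*.

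The heavy chain and its light chains are described first. *SLC3A2* (ENSG00000168003, chr11:62856102-62888875, plus strand) encodes the CD98 heavy chain, the shared partner of *SLC7A5*, *SLC7A6*, *SLC7A8* and *SLC7A11*. *SLC3A2* was 291 and 301 CPM in the unstimulated siNC libraries and 184 and 173 CPM in the IFNγ-stimulated siNC libraries. In siPDL1-1 cells, *SLC3A2* was 258 and 255 CPM without IFNγ and 208 and 187 CPM with it. In siPDL1-2 cells, *SLC3A2* was 218 and 212 CPM and 202 and 208 CPM, in the same order. The unstimulated siNC libraries were highest and the stimulated siNC libraries lowest, with no overlap between those groups. IFNγ lowered *SLC3A2* in siNC cells (log2 fold change -0.73, standard error 0.049, FDR = 1.98e-08, limma). The log2 fold change was -0.38 in siPDL1-1 cells and -0.07 in siPDL1-2 cells, neither of which was called. The interaction for siPDL1-2 was 0.66 (standard error 0.070, FDR = 4.20e-05, limma), that is, the change with IFNγ was less negative with siPDL1-2 than with siNC.

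*SLC7A5* (ENSG00000103257, chr16:87830023-87869507, minus strand), the carrier of leucine and other large neutral amino acids, had a similar course in siNC and siPDL1-1 cells. In siNC cells, *SLC7A5* was measured at 634 and 673 CPM before and 424 and 380.0 CPM after IFNγ. The values of *SLC7A5* were 580.0 and 581 CPM in unstimulated and 474 and 426 CPM in stimulated siPDL1-1 cells. They were 529 and 526 CPM for *SLC7A5* in unstimulated and 436 and 432 CPM in stimulated siPDL1-2 cells. All stimulated libraries were below all unstimulated libraries. *SLC7A5* fell with IFNγ in siNC cells (log2 fold change -0.70, standard error 0.055, FDR = 1.69e-07, limma), and the log2 fold changes of -0.37 in siPDL1-1 cells and -0.28 in siPDL1-2 cells did not reach the fold change threshold. The ratio of *SLC7A5* to *SLC3A2*, each as CPM per kb, lay between 0.861 and 1.02 over the 12 libraries with a median of 0.935. Both ends of this range were siPDL1-2 libraries, with ratios of 1.01 and 1.02 without IFNγ and 0.891 and 0.861 with it. The log2 fold change of *SLC7A5* against siNC without IFNγ was -0.17 with siPDL1-1 and -0.31 with siPDL1-2, with neither called.

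*SLC7A11* (ENSG00000151012, chr4:138164097-138242349, minus strand), the light chain that exports glutamate and imports cystine, differed between the siRNAs. Unstimulated cells had *SLC7A11* at 269.5 and 267 CPM with siNC, 187 and 197 CPM with siPDL1-1 and 305 and 323 CPM with siPDL1-2. After IFNγ, *SLC7A11* was 251.1 and 259 CPM with siNC, 168 and 217 CPM with siPDL1-1 and 188 and 166 CPM with siPDL1-2. Without IFNγ the siPDL1-1 libraries were lowest, the siPDL1-2 libraries highest and the siNC libraries between them, with no overlap. The difference of siPDL1-1 from siPDL1-2 was called in unstimulated cells (log2 fold change -0.70, standard error 0.104, FDR = 8.02e-04, limma), whereas the difference of each siRNA from siNC was not (log2 fold changes -0.48 and 0.23). With IFNγ *SLC7A11* fell in siPDL1-2 cells (log2 fold change -0.83, standard error 0.104, FDR = 3.90e-04, limma). It was -0.07 on the log2 scale in siNC cells, and the interaction for siPDL1-2 was -0.76 (standard error 0.148, FDR = 0.00497, limma). That interaction lost its call in 7 of the fits that left out 1 library, with an FDR of up to 0.0337 without siNC IFNγ replicate 2. The antisense gene *SLC7A11-AS1* averaged 4.13 CPM, and its reads were not separated by strand from those of *SLC7A11*.

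*SLC7A6* (ENSG00000103064, chr16:68264516-68301823, plus strand) encodes a light chain that exchanges cationic for neutral amino acids. *SLC7A6* was 53.8 and 50.8 CPM in the unstimulated siNC libraries and 47.2 and 49.7 CPM in the IFNγ-stimulated siNC libraries. In siPDL1-1 cells, *SLC7A6* was 31.3 and 31.1 CPM without IFNγ and 30.9 and 26.7 CPM with it. In siPDL1-2 cells, *SLC7A6* was 42.7 and 42.4 CPM and 43.6 and 39.9 CPM, in the same order. The siPDL1-1 libraries were below all others in both conditions. *SLC7A6* was lowered by siPDL1-1 against siNC without IFNγ (log2 fold change -0.73, standard error 0.069, FDR = 2.10e-06, limma) and after IFNγ (log2 fold change -0.73, standard error 0.069, FDR = 1.17e-06, limma). With siPDL1-2 the log2 fold changes were -0.29 and -0.21, neither called. The siPDL1-1 libraries after IFNγ differed from those of siPDL1-2 by -0.52 in log2 (FDR = 8.25e-05, limma), which was below the fold change threshold. *SLC7A6OS*, an overlapping gene of the other strand, averaged 34.5 CPM against 40.8 CPM for *SLC7A6*, and the counting did not use strand, so the values of *SLC7A6* are uncertain. *SLC7A8*, a further neutral amino acid light chain, averaged 2.26 CPM and was called in none of the comparisons.

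**Figure D3:**
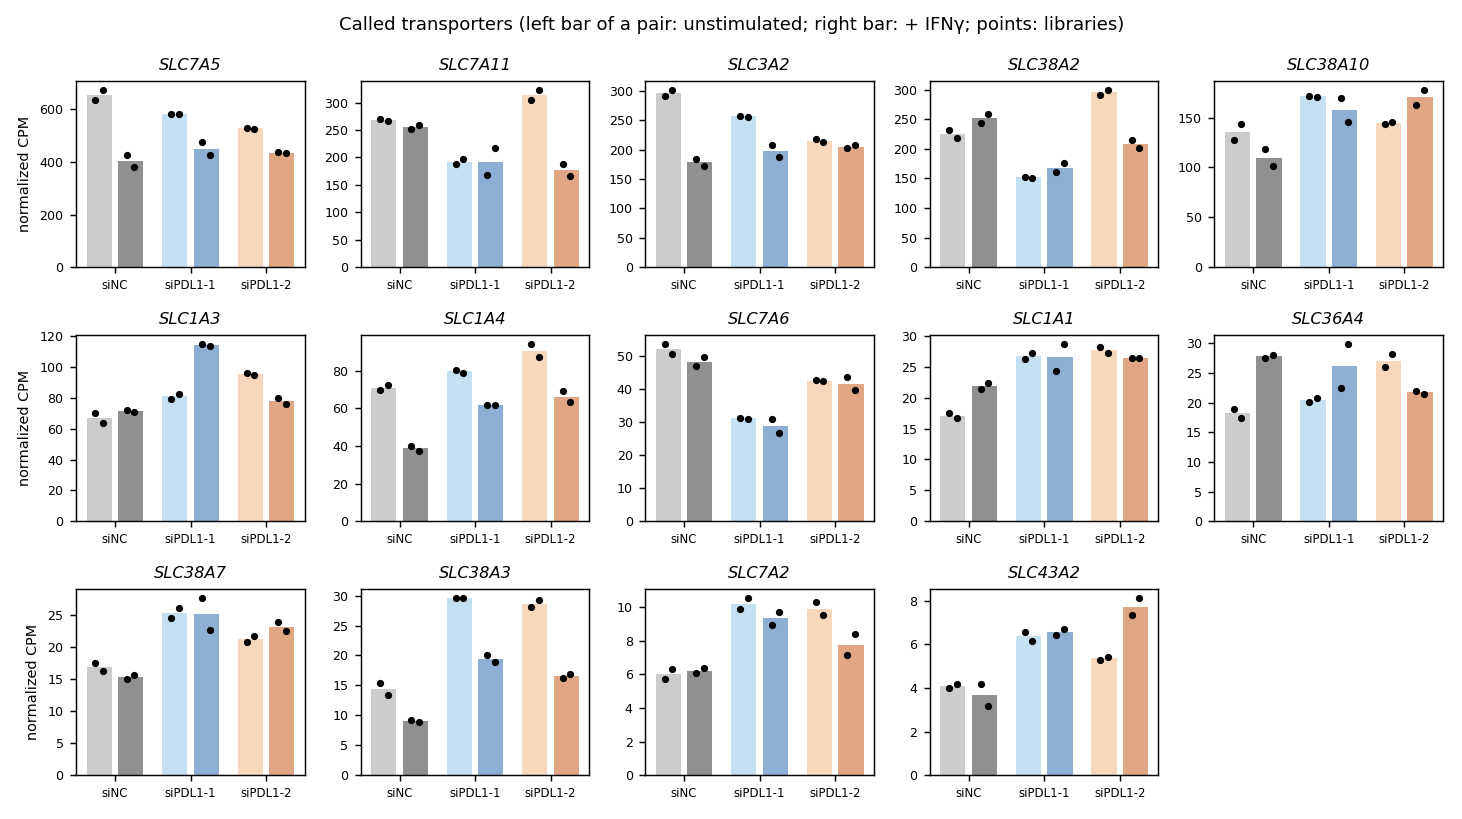
Normalized CPM in each library (points) and group mean (bars from 0, unstimulated left and IFNγ right in each pair) for the 14 transporters called in at least 1 pairwise comparison. SLC38A3 and SLC1A4 stand lowest in IFNγ-stimulated siNC cells, and SLC7A6 is lowest with siPDL1-1.

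Of the cationic amino acid carriers, *SLC7A1* was abundant at a mean of 174 CPM and was not called. *SLC7A2* (ENSG00000003989, chr8:17497088-17570573, plus strand), the arginine carrier known for induction by cytokines in macrophages and astrocytes, was lower. Unstimulated cells had *SLC7A2* at 5.73 and 6.33 CPM with siNC, 9.86 and 10.5 CPM with siPDL1-1 and 10.3 and 9.49 CPM with siPDL1-2. After IFNγ, *SLC7A2* was 6.09 and 6.35 CPM with siNC, 8.94 and 9.69 CPM with siPDL1-1 and 7.15 and 8.36 CPM with siPDL1-2. The siNC libraries were lower than all libraries of both siRNAs. Without IFNγ *SLC7A2* was raised by siPDL1-1 (log2 fold change 0.67, standard error 0.097, FDR = 9.49e-05, limma) and by siPDL1-2 (log2 fold change 0.63, standard error 0.097, FDR = 1.14e-04, limma). The call for siPDL1-2 was lost without siNC unstimulated replicate 1 and without siPDL1-2 unstimulated replicate 1 (log2 fold changes 0.57 and 0.58). After IFNγ the log2 fold changes against siNC were 0.51 and 0.28, which did not pass by limma, and DESeq2 called the first (log2 fold change 0.59, FDR = 0.00111). IFNγ itself gave 0.04 in siNC cells.

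Of the glutamate carriers, *SLC1A1* was raised by both siRNAs without IFNγ and *SLC1A3* by siPDL1-1 after it. *SLC1A1* (ENSG00000106688, chr9:4490468-4587469, plus strand) takes up glutamate, aspartate and cysteine. In siNC cells, *SLC1A1* was measured at 17.5 and 16.6 CPM before and 21.4 and 22.4 CPM after IFNγ. The values of *SLC1A1* were 26.2 and 27.2 CPM in unstimulated and 24.4 and 28.7 CPM in stimulated siPDL1-1 cells. They were 28.1 and 27.2 CPM for *SLC1A1* in unstimulated and 26.3 and 26.4 CPM in stimulated siPDL1-2 cells. Every siRNA library exceeded every siNC library. *SLC1A1* was raised in unstimulated cells by siPDL1-1 (log2 fold change 0.62, standard error 0.074, FDR = 1.76e-05, limma) and by siPDL1-2 (log2 fold change 0.67, standard error 0.074, FDR = 6.66e-06, limma). The call for siPDL1-1 was lost without siNC unstimulated replicate 2 (log2 fold change 0.58). After IFNγ the values against siNC were 0.26 and 0.26, and neither passed. *SPATA6L* on the opposite strand averaged 1.07 CPM.

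*SLC1A3* (ENSG00000079215, chr5:36606355-36688334, plus strand) encodes the glutamate and aspartate transporter of astrocytes. *SLC1A3* was 70.2 and 63.6 CPM in the unstimulated siNC libraries and 71.9 and 70.6 CPM in the IFNγ-stimulated siNC libraries. In siPDL1-1 cells, *SLC1A3* was 79.4 and 82.8 CPM without IFNγ and 115 and 114 CPM with it. In siPDL1-2 cells, *SLC1A3* was 96.0 and 94.9 CPM and 79.7 and 76.1 CPM, in the same order. The IFNγ-stimulated siPDL1-1 libraries were the highest and did not overlap with any other group. *SLC1A3* was raised by siPDL1-1 after IFNγ (log2 fold change 0.68, standard error 0.052, FDR = 1.23e-07, limma). Without IFNγ the log2 fold changes against siNC were 0.28 with siPDL1-1 and 0.51 with siPDL1-2, and after IFNγ it was 0.13 with siPDL1-2. In stimulated cells siPDL1-1 differed from siPDL1-2 by 0.55 in log2 (FDR = 2.71e-06, limma), which was below the fold change threshold.

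The neutral amino acid exchangers of the SLC1A family were *SLC1A5* and *SLC1A4*. *SLC1A5* (ENSG00000105281, chr19:46774883-46788594, minus strand) was called in none of the comparisons. Unstimulated cells had *SLC1A5* at 870.0 and 894 CPM with siNC, 773 and 766 CPM with siPDL1-1 and 800.1 and 808 CPM with siPDL1-2. After IFNγ, *SLC1A5* was 621 and 585 CPM with siNC, 655 and 609 CPM with siPDL1-1 and 689 and 719 CPM with siPDL1-2. Its stimulated libraries were all below its unstimulated libraries. The log2 fold changes with IFNγ were -0.55 with siNC, -0.28 with siPDL1-1 and -0.19 with siPDL1-2, all short of the fold change threshold, which the siNC value passed without siNC IFNγ replicate 1 (log2 fold change -0.59).

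*SLC1A4* (ENSG00000115902, chr2:64988477-65023865, plus strand), which exchanges serine, alanine and cysteine, had the largest fall with IFNγ among the transporters in siNC cells. In siNC cells, *SLC1A4* was measured at 69.8 and 72.4 CPM before and 40.3 and 37.1 CPM after IFNγ. The values of *SLC1A4* were 80.3 and 79.1 CPM in unstimulated and 62.0 and 61.9 CPM in stimulated siPDL1-1 cells. They were 94.3 and 87.1 CPM for *SLC1A4* in unstimulated and 69.1 and 63.2 CPM in stimulated siPDL1-2 cells. The stimulated siNC libraries were lowest and overlapped no other group. *SLC1A4* fell with IFNγ in siNC cells (log2 fold change -0.86, standard error 0.059, FDR = 2.03e-08, limma), and the values in siPDL1-1 cells (log2 fold change -0.36) and siPDL1-2 cells (-0.45) were not called. After IFNγ *SLC1A4* was higher than in siNC cells with siPDL1-1 (log2 fold change 0.67, standard error 0.059, FDR = 5.39e-07, limma) and with siPDL1-2 (log2 fold change 0.76, standard error 0.059, FDR = 4.72e-07, limma). Without IFNγ the same differences were 0.16 and 0.35. The interactions were 0.50 (FDR = 0.00221, limma) for siPDL1-1 and 0.41 (FDR = 0.00200, limma) for siPDL1-2, both below the fold change threshold.

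Among the sodium-coupled neutral amino acid carriers, *SLC38A3* was called most often. *SLC38A3* (ENSG00000188338, chr3:50205246-50221486, plus strand) is the glutamine and histidine carrier through which astrocytes release glutamine. *SLC38A3* was 15.4 and 13.4 CPM in the unstimulated siNC libraries and 9.14 and 8.92 CPM in the IFNγ-stimulated siNC libraries. In siPDL1-1 cells, *SLC38A3* was 29.6 and 29.6 CPM without IFNγ and 20.0 and 18.9 CPM with it. In siPDL1-2 cells, *SLC38A3* was 28.1 and 29.2 CPM and 16.2 and 17.0 CPM, in the same order. Each siRNA group was above the siNC group of the same condition, and the stimulated siNC libraries were lowest. *SLC38A3* was raised in unstimulated cells by siPDL1-1 (log2 fold change 0.99, standard error 0.075, FDR = 2.10e-07, limma) and by siPDL1-2 (log2 fold change 0.95, standard error 0.075, FDR = 2.70e-07, limma). It was also raised after IFNγ, by siPDL1-1 (log2 fold change 1.03, standard error 0.075, FDR = 6.94e-08, limma) and by siPDL1-2 (log2 fold change 0.81, standard error 0.075, FDR = 2.69e-06, limma). With IFNγ *SLC38A3* fell in siNC cells (log2 fold change -0.62, standard error 0.075, FDR = 1.07e-05, limma) and in siPDL1-2 cells (log2 fold change -0.76, standard error 0.075, FDR = 1.98e-06, limma), and the value of -0.58 in siPDL1-1 cells was just short of the fold change threshold. The call in siNC cells was lost without siNC unstimulated replicate 1 (log2 fold change -0.52). The interactions were 0.03 and -0.14, and neither was called.

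*SLC38A2* (ENSG00000134294, chr12:46358188-46372773, minus strand) is a sodium-coupled carrier of alanine, glutamine and other small neutral amino acids whose gene is known to respond to amino acid shortage. Unstimulated cells had *SLC38A2* at 231 and 218 CPM with siNC, 152 and 151 CPM with siPDL1-1 and 291 and 299 CPM with siPDL1-2. After IFNγ, *SLC38A2* was 244 and 259 CPM with siNC, 161 and 175 CPM with siPDL1-1 and 214 and 202 CPM with siPDL1-2. The siPDL1-1 libraries were lowest in both conditions, and the unstimulated siPDL1-2 libraries were highest. *SLC38A2* was lower with siPDL1-1 than with siPDL1-2 in unstimulated cells (log2 fold change -0.96, standard error 0.051, FDR = 1.93e-08, limma). Against siNC without IFNγ, the log2 fold changes were -0.56 with siPDL1-1 and 0.39 with siPDL1-2, and the first was not called by limma on all 12 libraries. It was called by edgeR and DESeq2, with DESeq2's size factors (log2 fold change -0.59) and without siNC unstimulated replicate 2 (-0.61). After IFNγ the value against siNC was -0.27 with siPDL1-2 and -0.58 with siPDL1-1 (FDR = 5.39e-07, limma), the latter just short of the fold change threshold. The siPDL1-1 value passed that threshold without siNC IFNγ replicate 1 (-0.62) and without siPDL1-1 IFNγ replicate 2 (-0.64). The interaction for siPDL1-2 was -0.67 (standard error 0.072, FDR = 4.20e-05, limma), with an IFNγ value of 0.16 in siNC cells and -0.50 in siPDL1-2 cells.

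*SLC38A7* (ENSG00000103042, chr16:58665109-58684770, minus strand), which exports glutamine from lysosomes, was raised by siPDL1-1 after IFNγ. In siNC cells, *SLC38A7* was measured at 17.5 and 16.3 CPM before and 15.1 and 15.6 CPM after IFNγ. The values of *SLC38A7* were 24.7 and 26.1 CPM in unstimulated and 27.7 and 22.8 CPM in stimulated siPDL1-1 cells. They were 20.9 and 21.8 CPM for *SLC38A7* in unstimulated and 24.0 and 22.5 CPM in stimulated siPDL1-2 cells. The stimulated siNC libraries were lowest, and all siRNA libraries were above all siNC libraries. The comparison of siPDL1-1 with siNC after IFNγ was called (log2 fold change 0.68, standard error 0.084, FDR = 1.79e-05, limma) but not without siPDL1-1 IFNγ replicate 1 (log2 fold change 0.54). With siPDL1-2 after IFNγ the log2 fold change was 0.57 (FDR = 1.60e-04, limma), just short of the fold change threshold, and it passed by edgeR and DESeq2. Without IFNγ the values against siNC were 0.56 with siPDL1-1 (FDR = 1.40e-04, limma) and 0.32 with siPDL1-2, both below that threshold. The siPDL1-1 value passed it without siNC unstimulated replicate 1 (0.61) and without siPDL1-1 unstimulated replicate 1 (0.60).

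*SLC38A10* (ENSG00000157637, chr17:81244811-81295547, minus strand), a less characterised member of the family, was raised by siPDL1-2 after IFNγ. *SLC38A10* was 127 and 143 CPM in the unstimulated siNC libraries and 118 and 101 CPM in the IFNγ-stimulated siNC libraries. In siPDL1-1 cells, *SLC38A10* was 172 and 171 CPM without IFNγ and 169.6 and 146 CPM with it. In siPDL1-2 cells, *SLC38A10* was 143 and 145 CPM and 163 and 178 CPM, in the same order. In the stimulated state both siRNA groups were above siNC without overlap. The call for siPDL1-2 (log2 fold change 0.63, standard error 0.086, FDR = 2.45e-04, limma) was lost without siNC IFNγ replicate 2 and without siPDL1-2 IFNγ replicate 2 (log2 fold changes 0.52 and 0.57), and with siPDL1-1 the value was 0.52 (FDR = 6.33e-04, limma). *SLC38A1*, *SLC38A9*, the arginine sensor of the lysosome, and *SLC38A6* averaged 166, 17.5 and 5.75 CPM and were called in none of the comparisons. For *SLC38A1* the log2 fold change with IFNγ was -0.19 in siNC cells, -0.12 in siPDL1-1 cells and -0.53 in siPDL1-2 cells, the last below the fold change threshold (FDR = 4.96e-07, limma). *SLC38A6* overlaps *TRMT5* on the opposite strand, which averaged 16.4 CPM, so its values are uncertain.

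The SLC36A carriers at 1 CPM or more were *SLC36A1* (18.5 CPM), which exports small amino acids from lysosomes and was not called, and *SLC36A4*. *SLC36A4* (ENSG00000180773, chr11:93144174-93197991, minus strand) carries proline and tryptophan. In siNC cells, *SLC36A4* was measured at 19.0 and 17.4 CPM before and 27.6 and 28.1 CPM after IFNγ. The values of *SLC36A4* were 20.1 and 20.7 CPM in unstimulated and 22.5 and 29.9 CPM in stimulated siPDL1-1 cells. They were 26.0 and 28.2 CPM for *SLC36A4* in unstimulated and 22.0 and 21.5 CPM in stimulated siPDL1-2 cells. In siNC cells the stimulated libraries were above the unstimulated ones without overlap, and in siPDL1-2 cells they were below them. *SLC36A4* rose with IFNγ in siNC cells (log2 fold change 0.59, standard error 0.10, FDR = 2.92e-04, limma), a call that was lost with DESeq2's size factors (log2 fold change 0.56) and without replicate 2 of either siNC group (0.53 and 0.58). In siPDL1-2 cells the value was -0.30, and the interaction for siPDL1-2 was -0.89 (standard error 0.141, FDR = 4.36e-04, limma). The siPDL1-1 value was 0.33, and its 2 stimulated libraries were far apart.

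In the SLC43A family, *SLC43A1* and *SLC43A2* encode facilitative carriers of branched-chain amino acids and phenylalanine. *SLC43A1* averaged 8.79 CPM and was not called by limma, although edgeR and DESeq2 called it downward with IFNγ in siNC cells (log2 fold changes -0.59 and -0.60). *SLC43A2* (ENSG00000167703, chr17:1569268-1628886, minus strand) was higher with the siRNAs after IFNγ. Unstimulated cells had *SLC43A2* at 4.01 and 4.18 CPM with siNC, 6.58 and 6.17 CPM with siPDL1-1 and 5.27 and 5.43 CPM with siPDL1-2. After IFNγ, *SLC43A2* was 4.18 and 3.17 CPM with siNC, 6.44 and 6.68 CPM with siPDL1-1 and 7.33 and 8.13 CPM with siPDL1-2. In the stimulated state all siRNA libraries were above the siNC libraries, and the siPDL1-2 libraries were the highest. *SLC43A2* was raised after IFNγ by siPDL1-1 (log2 fold change 0.70, standard error 0.110, FDR = 1.60e-04, limma) and by siPDL1-2 (log2 fold change 0.91, standard error 0.110, FDR = 2.97e-05, limma). The call for siPDL1-1 was lost without siNC IFNγ replicate 2 (log2 fold change 0.55). Without IFNγ the values were 0.53 and 0.32, and neither passed by limma, while edgeR called the first (log2 fold change 0.60, FDR = 0.00312) and so did limma with a pseudocount of 0.1 (0.63).

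Genes of the amino acid response, the GCN2, eIF2α and ATF4 pathway that controls several of these transporters, were examined as a list of 30 genes, all tested. IFNγ in siNC cells raised 1 (*ATF3*) and lowered 3, where 6.67% of all genes rose and 1.45% fell. In siPDL1-1 cells it raised 1 and lowered 0 (5.58% and 1.30% of all genes), and in siPDL1-2 cells it raised 1 and lowered 2 (3.62% and 1.65%). Without IFNγ siPDL1-1 raised 1 and lowered 2 of the 30 genes (2.55% and 1.45% of all genes) and siPDL1-2 raised 2 and lowered 0 (4.84% and 1.33%). After IFNγ siPDL1-1 raised 2 and lowered 0 (3.73% and 1.75% of all genes), and siPDL1-2 raised 4 and lowered 0 (1.92% and 1.20%). Between the siRNAs 0 genes were higher and 5 lower with siPDL1-1 without IFNγ (0.884% and 3.47% of all genes), and 1 was higher and 1 lower after it (1.79% and 0.439%). The median log2 fold change of the list was -0.27 with IFNγ in siNC cells and -0.24 for siPDL1-1 against siPDL1-2 without IFNγ, where the medians of all genes were 0.0012 and 0.00072. In the other pairwise comparisons the median of the list lay between -0.15 and 0.13.

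*PSAT1*, an enzyme of serine synthesis, was 63.9 and 60.8 CPM in unstimulated siNC cells, 169 and 171 CPM with siPDL1-1 and 216 and 219 CPM with siPDL1-2. It was raised by both siRNAs without IFNγ (log2 fold changes 1.43 and 1.79) and after IFNγ (1.56 and 1.69). *TRIB3*, a pseudokinase induced by ATF4, was 205 and 210.4 CPM in unstimulated and 108 and 91.8 CPM in stimulated siNC cells and fell with IFNγ there (log2 fold change -1.06, standard error 0.070, FDR = 5.87e-08, limma). After IFNγ *TRIB3* was higher with siPDL1-2 than with siNC (log2 fold change 0.72). *ATF3*, a stress-induced transcription factor, rose with IFNγ in siNC cells (log2 fold change 0.70) and in siPDL1-1 cells (1.56). *CEBPB*, a transcription factor of stress and inflammation, rose with IFNγ in siPDL1-2 cells (49.5 ± 0.533 to 95.9 ± 0.280 CPM, mean ± SD, n = 2, log2 fold change 0.94, FDR = 1.44e-04, limma).

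**Figure D4:**
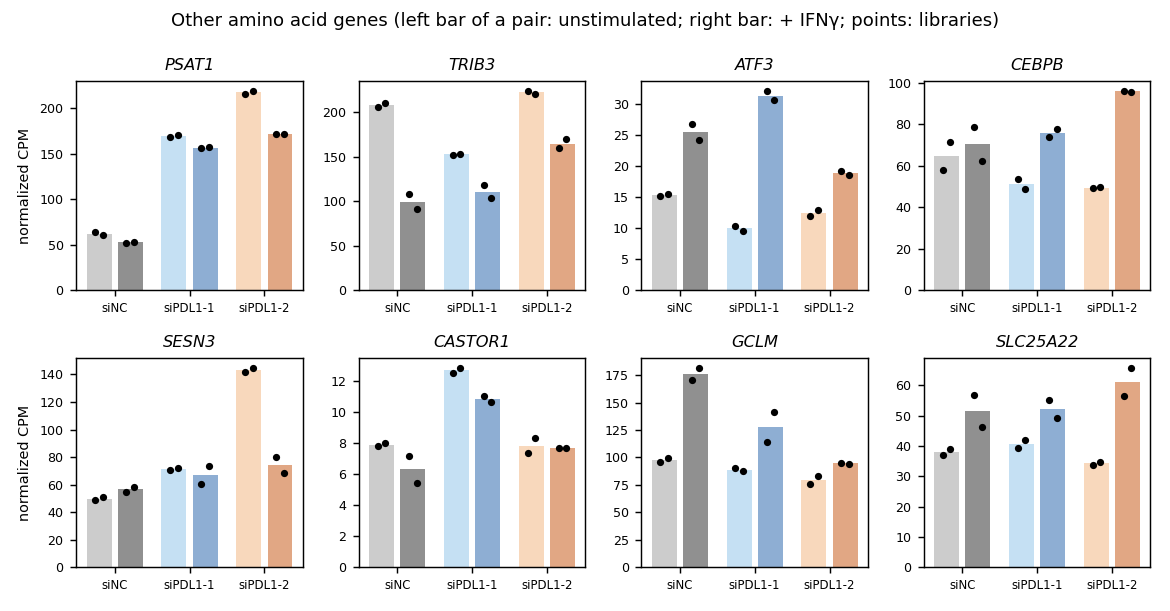
Normalized CPM in each library (points) and group mean (bars from 0, unstimulated left and IFNγ right in each pair) for 4 genes of the amino acid response, SESN3, CASTOR1, GCLM and SLC25A22. PSAT1 is above 150 CPM in every siRNA library and below 70 CPM in every siNC library.

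A list of 9 genes of glutathione synthesis and turnover was examined beside *SLC7A11*. It held *GCLC*, *GCLM*, *GSS*, *GSR*, *GGT1*, *GGT5*, *GGT7*, *CHAC2* and *GPX4*. In 7 of the 9 pairwise comparisons limma called 0 of the 9 and in the other 2 it called 1, where between 2.23% and 8.12% of all genes were called. *GCLM*, the modifier subunit of the rate-limiting enzyme of glutathione synthesis, was 97.9 ± 2.66 CPM in unstimulated and 176 ± 7.56 CPM in stimulated siNC cells (mean ± SD, n = 2) and rose with IFNγ (log2 fold change 0.84, standard error 0.079, FDR = 3.23e-06, limma). After IFNγ *GCLM* averaged 128 ± 19.2 CPM in siPDL1-1 and 94.5 ± 0.0197 CPM in siPDL1-2 cells (± SD, n = 2), and the difference of siPDL1-2 from siNC was called (log2 fold change -0.89, standard error 0.079, FDR = 6.22e-06, limma). *SLC7A11* in the same comparison had a log2 fold change of -0.53 (FDR = 0.00480, limma), which did not pass the fold change threshold.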

How the data were processed

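The deposited signal values are the authors' normalized CPM, 1 column per library. Per the methods, CLC Genomics Workbench was used by the authors for trimming, mapping to GRCh38 (Ensembl, release not given in the sources used here), counting on both strands and normalization, although the labels name a stranded kit. Labels and methods differ in the extraction kit and instrument. Dividing each value by that of 1 read gave whole numbers (tolerance 0.05 reads) for 100% of genes in each library, and these reads were used in filtering and in the count tests. The authors' scaling equalled edgeR's TMM factors.

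Genes were kept with filterByExpr (minimum count 10, minimum total count 15), which left 17982. The 12 libraries were fitted as 6 groups with limma (trend, robust) on log2 of CPM plus 1, with Benjamini-Hochberg adjustment over all genes tested. Members were taken by symbol, and values in every library are given for members called in at least 1 of the 9 pairwise comparisons and for *SLC3A2*, *SLC7A5* and *SLC7A11*. From each pathway list at most 4 called genes with a mean of 1 CPM or more and the largest changes are named. The members and lists were chosen with earlier results of these data known. Lengths are of canonical transcripts in GENCODE 44, and promoter windows are from RefSeq. Of the 40 members, 35 had the same span in GENCODE 44, and *SLC3A2*, *SLC1A3*, *SLC38A6*, *SLC38A11* and *SLC1A6* did not. Alternatives were edgeR's quasi-likelihood test and DESeq2's Wald test on the recovered reads, DESeq2's size factors, a pseudocount of 0.1, no filter, fits of the compared libraries alone, a replicate block, leaving out each library, and FDR < 0.05 without a fold change threshold. The limma fit was tested on simulated data. Software was Python 3.11.15 with pandas 2.3.3 and numpy 2.4.6, and R 4.3.3 with DESeq2 1.42.0, edgeR 4.0.16 and limma 3.58.1.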

Additional observations from a re-analysis of the deposited data

Results flagged for a closer look

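The effect of IFNγ differed between siPDL1-2 and siNC cells for 4 of 27 transporters, by the interaction term of the limma fit over 12 libraries. Of all genes tested, 7.62% were called in this interaction (1.84% upward, 5.78% downward). For *SLC36A4* the difference was -0.89 on the log2 scale (standard error 0.141, FDR = 4.36e-04), with IFNγ values of 0.59 in siNC cells and -0.30 in siPDL1-2 cells. For *SLC38A2* it was -0.67 (standard error 0.072, FDR = 4.20e-05), with 0.16 and -0.50. *SLC7A11* had a difference of -0.76 (standard error 0.148, FDR = 0.00497), with -0.07 and -0.83, and lost its call in 7 of the fits that left out 1 library. *SLC3A2* had a difference of 0.66 (standard error 0.070, FDR = 4.20e-05), with -0.73 and -0.07. The starting levels differed too. Without IFNγ, siPDL1-2 against siNC gave 0.55 for *SLC36A4*, 0.39 for *SLC38A2*, 0.23 for *SLC7A11* and -0.46 for *SLC3A2*. After IFNγ these values were -0.34, -0.27, -0.53 and 0.20, and none of them was called by limma on all 12 libraries.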

How the results depend on the processing

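Of the 30 called transporter results, 22 were called under every alternative, 8 lost their call under at least 1, and 0 changed direction. Without a fold change threshold, at FDR < 0.05, the transporters called numbered 16 for IFNγ in siNC cells, 14 in siPDL1-1 and 12 in siPDL1-2 cells. They numbered 18 and 17 for siPDL1-1 and siPDL1-2 without IFNγ, 17 and 14 after it, 13 and 5 between the siRNAs without and with IFNγ, and 18 calls, of 13 different transporters, for the interactions. Of all genes, between 19.2% and 40.8% passed this rule in the pairwise comparisons, and 3.18% and 29.6% in the interactions for siPDL1-1 and siPDL1-2. For IFNγ in siPDL1-1 cells, edgeR, DESeq2 and a pseudocount of 0.1 each called 1 transporter, and 1461, 1273 and 1439 of all genes. Leaving out 1 library gave 4 to 6 and 0 to 2 transporters for IFNγ in siNC and siPDL1-1 cells (2 without siPDL1-1 IFNγ replicate 1, *SLC38A3* and *SLC7A8*), 5 to 9 and 4 to 5 for siPDL1-1 and siPDL1-2 after IFNγ, 0 to 2 between the siRNAs after IFNγ, where the count was 2 without siPDL1-1 IFNγ replicate 1 (*SLC7A6* and *SLC7A8*) and 1 without siPDL1-2 IFNγ replicate 2 (*SLC7A6*), and 3 to 5 for the interactions. The number of all genes called also changed with the library left out, not always in the same direction as the transporters. Whether the transporters shifted more than other genes was not tested. Groups with 1 library left were assumed to vary like the others. Whether the replicate numbers pair the samples is not stated. Deviations of same-numbered libraries correlated between -0.187 and 0.252 over the pairs of groups, which cannot decide it. With a replicate block the counts were 5, 0 and 2 for IFNγ, 4, 3, 6 and 4 for the siRNAs, 2 and 0 between them and 4 for the interactions, as without it. Pairs of libraries and, below 1 CPM, few reads limit what these data can resolve.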

Other observations

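Amino acid sensing by mTORC1, the kinase complex that reads amino acids at the lysosome, was examined as a list of 34 genes, 33 of them tested. In each of the 9 pairwise comparisons between 0 and 2 of the 33 were called by limma, where between 2.23% and 8.12% of all genes were called. *SESN3*, a sestrin that restrains mTORC1, averaged 49.8 ± 1.36 CPM in unstimulated siNC cells, 71.3 ± 1.44 in siPDL1-1 and 143 ± 2.24 in siPDL1-2 cells (± SD, n = 2). It rose with siPDL1-2 (log2 fold change 1.505, standard error 0.084, FDR = 5.53e-08, limma) and fell with IFNγ in siPDL1-2 cells (log2 fold change -0.95, standard error 0.084, FDR = 2.52e-06, limma), where its libraries averaged 74.0 ± 8.15 CPM. *CASTOR1*, the cytosolic arginine sensor, rose with siPDL1-1 without IFNγ (log2 fold change 0.62) and after IFNγ (0.71), with values between 6.32 and 12.7 CPM as group means. *FNIP2*, a partner of folliculin, was higher with siPDL1-1 than with siPDL1-2 after IFNγ (log2 fold change 0.63), and *CASTOR2* fell with IFNγ in siPDL1-1 cells (-0.59).

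Of 27 amino acid transporter genes of other families, 16 were tested and limma called 0 or 1 in each pairwise comparison, against the same range for all genes. *SLC25A22*, a mitochondrial glutamate carrier, rose with IFNγ in siPDL1-2 cells from 34.2 ± 0.625 to 61.1 ± 6.58 CPM (± SD, n = 2, log2 fold change 0.81, standard error 0.093, FDR = 2.58e-05, limma). Its log2 fold change was not called in siNC cells, where the means were 38.04 ± 1.38 and 51.5 ± 7.36 CPM. *SLC25A18*, the other mitochondrial glutamate carrier, was near 1 CPM and rose with siPDL1-2 in unstimulated cells (log2 fold change 0.67, FDR = 0.00893, limma). *SLC17A7*, a vesicular glutamate transporter, was higher with siPDL1-1 than with siPDL1-2 in unstimulated cells (log2 fold change 0.70, FDR = 1.67e-04, limma).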
